A study of Rattus norvegicus with 20 samples.

Results

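The genes of the proteasome were followed through 20 single-colour Agilent arrays of cultured neonatal rat heart cells treated with celecoxib, a selective inhibitor of cyclooxygenase-2. They were taken by name. Every probe that was not a control and whose gene name, without the suffix "predicted", began with Psma, Psmb, Psmc, Psmd, Psme or Psmf was a member, and the probe with the highest mean log2 processed signal over the 20 arrays stood for each gene. This gave 42 genes, represented on the array by 50 probes, of 35561 genes and 41012 probes in all. All 42 passed the filter on dim probes, which kept 27787 genes. No probe carried the name Psmf1, so the inhibitor of that name has no value here.

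The cultures came from hearts of newborn rats and had grown for 1 day in DMEM before treatment. The 7 groups were untreated cells (2 arrays) and cells given celecoxib at the reference concentrations 1/25, 1/5 and 1 for 24 h and, in separate groups, for 6 h (3 arrays each). The labels state neither what a reference concentration of 1 was in absolute terms nor a strain, a vehicle or a time for the untreated cells, and the design text announces 3 replicates for every group. Nothing states that the replicates were separate cultures, so the p-values below measure the spread between these arrays, which may be technical.

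The proteasome is the cell's main machine for breaking down proteins that carry ubiquitin chains. Its core is a barrel of alpha rings (Psma genes) around beta rings (Psmb genes), and the active sites lie on the beta subunits of Psmb5, Psmb6 and Psmb7. Under interferon, newly built proteasomes carry Psmb8, Psmb9 and Psmb10 in their place and are called immunoproteasomes. A regulatory cap of ATPases (Psmc) and other subunits (Psmd) binds, unfolds and feeds in the substrates, and the Psme genes encode activators that open the barrel without this cap. In heart muscle the system turns over contractile proteins. By these roles the 42 genes were 7 alpha subunits, 4 beta subunits without an active site, 3 constitutive and 3 inducible catalytic subunits, 6 cap ATPases, 10 other cap subunits, 3 factors that help assemble the cap (Psmd5, Psmd9 and Psmd10) and 4 activators. The name rule also took in 2 genes outside the complex, Psma3l, a copy of Psma3, and Psmc3ip, a recombination protein named for its binding to Psmc3.

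On each array 63.6% to 83.2% of the probes were well above background and 5.75% to 9.23% were saturated. Precision is limited by how few arrays each group has. The scanner software placed 41 of the member probes well above background on each of the 20 arrays, and that of Psmb9 on 15. Saturation was common among the brightest: 15 of the 42 probes were saturated on at least 1 array and those of Psma4, Psmb4 and Psmc2 on all 20, so their changes are compressed or lost. The file headers give 2 scan days and 6 slides. All arrays of celecoxib 1/5 at 6 h, 2 of celecoxib 1/25 at 6 h and 1 of celecoxib 1 at 6 h were scanned on day 2, and all untreated and all 24 h arrays on day 1. Arrays of one group correlated at a mean r of 0.961 when scanned on the same day and 0.905 across days. All 11 cardiomyocyte markers measured, among them Myh6, Tnnt2 and Actn2, stood well above background on every array. So did Col1a1, Col1a2, Col3a1, Pdgfra and Postn of the fibroblast markers, and Dcn, Tcf21 and Lum did on 19, 18 and 14 arrays. Of the macrophage and leukocyte markers Ptprc, Cd68, C1qa, C1qb, Cd14, Laptm5, Tyrobp and Lyz did so on every array. Aif1, Csf1r and Cd74 did so on 19, 11 and 10 arrays. The cultures labelled as cardiomyocytes therefore also held RNA of other heart cells.

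Values below are log2 signals relative to the 75th percentile of the same array, so a difference of 1 between groups is a doubling, and they are compared within a gene and never between genes. A gene was called where limma's moderated test, fitted over all 20 arrays, gave an adjusted p below 0.05 after Benjamini-Hochberg adjustment over all genes. The plot of all members by array shows the data behind the comparisons.

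**Figure D1:**
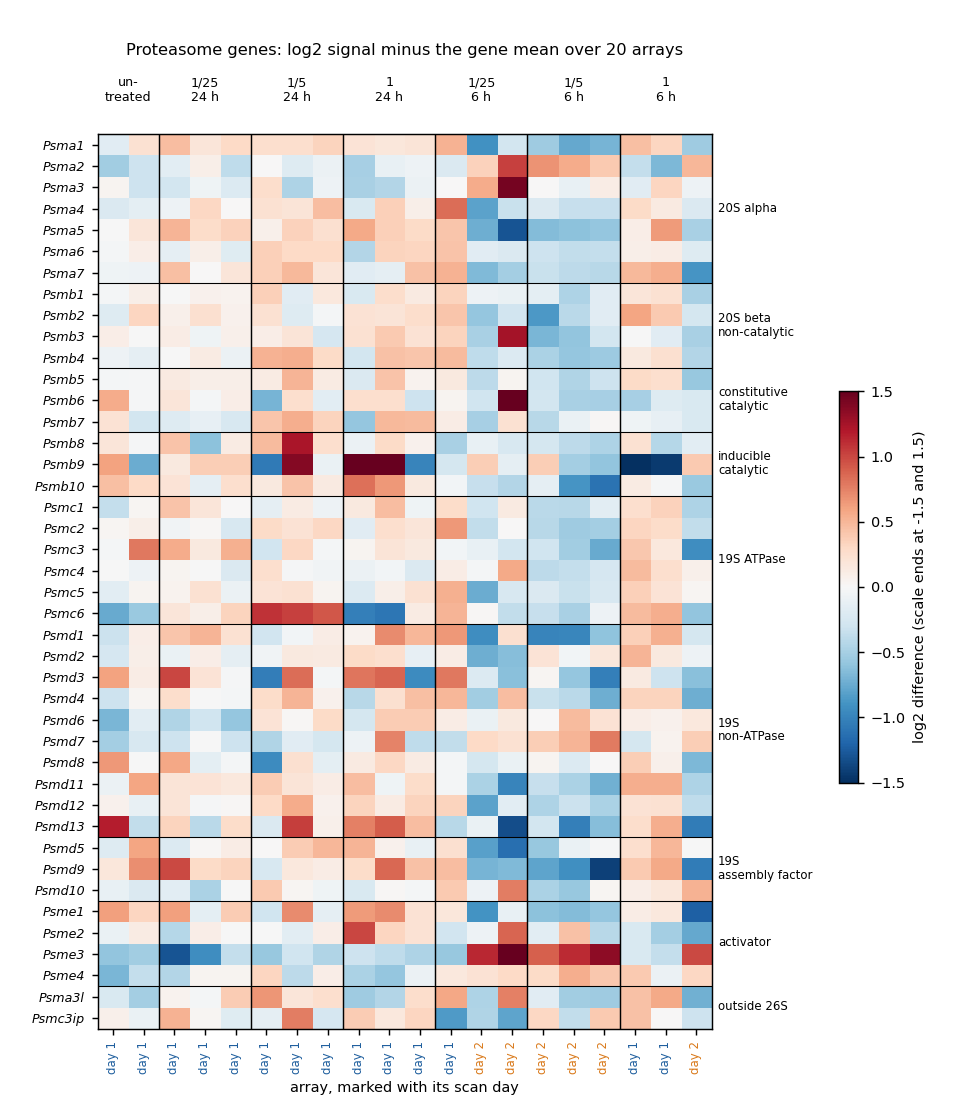
Log2 signal of the 42 proteasome genes (rows, by role) on the 20 arrays (columns, by group, with the scan day under each), each minus the gene's mean over the arrays. The columns of scan day 2 are mostly blue, with more red on replicate 3 of celecoxib 1/25 at 6 h. Psme3, Psma2, Psmd7 and Psme4 are red on every column of day 2. Psmc6 is reddest on the 3 arrays of celecoxib 1/5 at 24 h.

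The probes that the results turn on are shown first, because for several genes the answer depends on which probe is read. Genomic positions are those the array files give, on rat build rn3, and each sequence runs 5′ to 3′. The brighter probe of Psmc6, an ATPase of the cap, lies at chr15:21238398-21238457 on the plus strand, 214 bases beyond the end of the dimmer one at chr15:21238124-21238183. The dimmer probe spans the end of the longest open frame in it, and its stop codon is in capitals below. The first 30 bases of the brighter probe and the 41 bases of the dimmer one up to the stop are given.
Psmc6, brighter probe: ttcgtatttgctttgtgagcattttgtaca
Psmc6, dimmer probe: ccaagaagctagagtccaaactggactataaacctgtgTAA

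Psmd7, a cap subunit that is not an ATPase, had 3 probes, all on the minus strand. The brightest lies at chr19:37457182-37457241 and its first 30 bases are printed. The second lies at chr19:37457873-37457932, and the dimmest was placed across an interval of 618 bases at chr19:37461057-37461674. Both of these are printed whole.
Psmd7, brightest probe: ataagattcaagggtctgttggtggtaatt
Psmd7, second probe: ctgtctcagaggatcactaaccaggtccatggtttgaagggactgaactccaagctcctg
Psmd7, dimmest probe: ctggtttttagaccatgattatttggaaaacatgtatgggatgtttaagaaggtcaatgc

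Psmb4, a structural beta subunit, had a single probe across an interval of 295 bases at chr2:189732781-189733075 on the minus strand. It is shown because it was called once and was saturated on every array.
Psmb4: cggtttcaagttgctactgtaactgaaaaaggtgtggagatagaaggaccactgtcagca

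Some promoter motifs are known in mammals for proteasome genes. One is the antioxidant response element, bound by the factors Nfe2l1 and Nfe2l2, searched here as TGACNNNGC on both strands, and another is the CCAAT box, searched as CCAAT and ATTGG. RefSeq promoters (GRCr8, the 250 bases before the start) matched 38 of the 42 genes, all but Psma3l, Psma7, Psmd6 and Psmd12. TGACNNNGC was found in 7 of the 38 (18.4%), against 10.2% of 27457 promoters of all genes. CCAAT was found in 19 of the 38 (50%), against 34.3% of all promoters. The 7 were Psma3, Psmb2, Psmb5, Psmb6, Psmd1, Psmd9 and Psme4. They include Psmb5 and Psmb6, which carry active sites, and Psmd9, the single member with the motif at 2 places. Those 3 promoters are printed, with the matches to TGACNNNGC in capitals and, in Psmd9, also a match to ATTGG. A match describes the letters and is no evidence of binding.
Psmb5, chr15:32047380-32047629, minus strand: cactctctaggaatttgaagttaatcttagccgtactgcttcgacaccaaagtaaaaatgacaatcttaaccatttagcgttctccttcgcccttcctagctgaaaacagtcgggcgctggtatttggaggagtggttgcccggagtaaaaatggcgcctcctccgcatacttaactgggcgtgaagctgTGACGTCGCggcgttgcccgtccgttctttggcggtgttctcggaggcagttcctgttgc
Psmb6, chr10:55737638-55737887, plus strand: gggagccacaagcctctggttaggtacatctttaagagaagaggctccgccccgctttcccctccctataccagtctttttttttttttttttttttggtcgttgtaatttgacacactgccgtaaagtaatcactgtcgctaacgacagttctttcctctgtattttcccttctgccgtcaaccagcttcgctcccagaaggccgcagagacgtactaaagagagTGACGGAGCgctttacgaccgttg
Psmd9, chr12:39018265-39018514, minus strand: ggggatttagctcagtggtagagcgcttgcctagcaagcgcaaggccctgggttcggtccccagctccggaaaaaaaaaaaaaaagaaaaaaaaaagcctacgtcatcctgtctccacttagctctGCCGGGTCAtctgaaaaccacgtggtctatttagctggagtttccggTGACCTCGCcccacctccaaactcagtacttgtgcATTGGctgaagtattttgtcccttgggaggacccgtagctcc

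The first question was whether celecoxib, at any concentration or time, moved the proteasome genes away from untreated cells. No member was called by limma in any of the 6 comparisons, which all share the same 2 untreated arrays. At 24 h the share of all genes called was 0.288% for celecoxib 1/25, 0.288% for 1/5 and 0.0648% for 1. At 6 h it was 6.15% for 1/25, 6.49% for 1/5 and 0.439% for 1. The number of members with an unadjusted p below 0.05 was 1, 2 and 1 at 24 h, in rising order of concentration, and 5, 10 and 1 at 6 h. As shares of the 42, the 24 h counts are 2.38%, 4.76% and 2.38%, against 11.3%, 14.4% and 10.9% of all genes, and the 6 h counts are 11.9%, 23.8% and 2.38%, against 29.2%, 24.2% and 18.6%. The median difference of the members from untreated was 0.04 at 1/25, 0.13 at 1/5 and 0.15 at 1 after 24 h, and 0.00, -0.34 and 0.05 after 6 h. Over all genes the corresponding medians were -0.04, -0.03 and 0.00 at 24 h, and -0.19, -0.20 and -0.08 at 6 h. The member medians depended on the setting. For 1/5 at 6 h, 9 members were higher and 33 lower in the fit on groups. With scan day in the fit the median was 0.17, with 28 higher and 14 lower, and with slide as a fixed block 0.24. The median stayed negative with median scaling (-0.14), quantile normalization (-0.2) and slide as a random block (-0.15). Median scaling gave 0.45 for 1 at 24 h and 0.43 for 1/25 at 6 h, against 0.3 and 0.24 over all genes. The typical 95% confidence interval of a member reached 0.74 to either side, so changes of less than about that size could not be resolved. Treated and untreated arrays did not overlap for 9, 18 and 6 members at 24 h, against 33%, 40.1% and 28.2% of all genes. At 6 h this held for 11, 29 and 10 members, against 29.7%, 51.6% and 26.9%. For 1/5 at 6 h, quantile normalization between arrays called 4 members (Psmb10, Psmd9, Psme3 and Psme4) and 12.7% of all genes. For 1/25 at 6 h, 5 members (11.9%) were called without the single array of scan day 1 (Psma2, Psma3, Psma5, Psmd5 and Psme3), against 13.7% of all genes, in a comparison that then lay wholly between the scan days. With slide as a random block no member was called in any of the 12 comparisons. The shares of all genes called against untreated were then 0.0108%, 0.0144% and 0.0108% at 24 h and 0.0468%, 0.0108% and 1.64% at 6 h, in rising order of concentration.

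None of the constitutive catalytic subunits was called. Psmb5, the subunit with the chymotrypsin-like site, read 2.18 and 2.19 on the untreated arrays. At 24 h it read 2.34, 2.29 and 2.29 at celecoxib 1/25, 2.33, 2.71 and 2.33 at 1/5 and 1.99, 2.63 and 2.26 at 1. At 6 h it read 2.35, 1.81 and 2.25 at 1/25, 1.91, 1.75 and 1.90 at 1/5 and 2.49, 2.46 and 1.64 at 1. The lowest readings at 6 h, at each concentration, were arrays of scan day 2, and Psmb5 was saturated on 9 of the 20 arrays.

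Psmb6 encodes the subunit with the caspase-like site. It read -0.97 and -1.54 without treatment. At 24 h the values were -1.34, -1.55 and -1.43 at 1/25, -2.22, -1.27 and -1.69 at 1/5 and -1.27, -1.27 and -1.84 at 1. At 6 h they were -1.49, -1.83 and 0.50 at 1/25, -1.80, -2.01 and -2.02 at 1/5 and -2.02, -1.72 and -1.75 at 1. One array of celecoxib 1/25 at 6 h, at 0.50, stood above all others, which lay between -2.22 and -0.97.

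Psmb7 carries the trypsin-like site. It read 2.38 and 1.89 on untreated arrays, 1.97, 2.04 and 1.92 at 1/25 for 24 h, 2.58, 2.71 and 2.50 at 1/5 and 1.59, 2.65 and 2.64 at 1. After 6 h it read 2.28, 1.67 and 2.39 at 1/25, 1.75, 2.07 and 2.18 at 1/5 and 2.10, 2.04 and 1.94 at 1. At 1/5 all 3 arrays of 24 h were above both untreated arrays, by a mean of 0.46, which was not called (adjusted p = 0.523, limma). At concentration 1 the 24 h arrays fell into 1 low and 2 high readings, so the groups overlapped.

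The inducible catalytic subunits were not called either, although Psmb8 and Psmb10 had means below the untreated mean in all 3 groups of 6 h. Psmb8, the counterpart of Psmb5, read -0.69 and -0.89 without treatment, and at 24 h -0.44, -1.48 and -0.74 at 1/25, -0.39, 0.36 and -0.62 at 1/5 and -0.95, -0.58 and -0.80 at 1. The 6 h arrays read -1.35, -0.98 and -1.11 at 1/25, -1.13, -1.26 and -1.33 at 1/5 and -0.64, -1.29 and -1.03 at 1. At 24 h the range within each group was wider than the distance of its mean from the untreated mean.

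Psmb9, the counterpart of Psmb6, was the most scattered member and the only one not well above background on all arrays. Its residual SD was 0.981, against a median of 0.362 over the members and 0.468 over all genes. It read -3.67 and -5.02 on untreated arrays, -4.13, -3.91 and -3.91 at 1/25 for 24 h, -5.33, -2.90 and -4.37 at 1/5 and -2.67, -2.32 and -5.27 at 1. At 6 h the values were -4.54, -3.91 and -4.41 at 1/25, -3.90, -4.78 and -4.87 at 1/5 and -5.98, -5.71 and -3.88 at 1. The 3 arrays of concentration 1 at 24 h alone reached from -5.27 to -2.32, a wider range than the distance between any 2 group means, and no comparison called Psmb9.

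Psmb10, the counterpart of Psmb7, came nearest to a call. It read 0.07 and -0.08 without treatment, and at 24 h -0.18, -0.52 and -0.13 at 1/25, -0.23, 0.05 and -0.25 at 1/5 and 0.45, 0.27 and -0.23 at 1. At 6 h it read -0.42, -0.73 and -0.82 at 1/25, -0.51, -1.26 and -1.49 at 1/5 and -0.26, -0.40 and -0.94 at 1. All 9 arrays of 6 h lay below both untreated arrays. The differences were -0.65 ± 0.32 at 1/25, -1.08 ± 0.32 at 1/5 and -0.53 ± 0.32 at 1 (log2 difference ± SE), with adjusted p of 0.183, 0.0507 and 0.38 in limma. With scan day in the fit they were -0.33 ± 0.33, -0.60 ± 0.38 and -0.37 ± 0.29, none of them called. Leukocytes are rich in the inducible subunits, so the 11 macrophage and leukocyte markers measured were summed, each as a multiple of the array's 75th percentile. The sum at 6 h was 10.2 to 12.6 at 1/25, 11.6 to 12.9 at 1/5 and 11.1 to 12 at 1, against 13.6 to 17.5 in untreated cells. At 24 h it was 12.8 to 13.7, 13.2 to 14.8 and 11.6 to 14.5. The markers did not move as one, since 3, 5 and 4 of the 11 read higher than untreated at 6 h, with median differences of -0.73, -0.16 and -0.14. Their part in the Psmb10 differences was not tested.

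The widest difference of a member from untreated at 6 h was that of an activator, Psme3, described after the pair of Psme1 and Psme2. Psme1 and Psme2 form the interferon-induced ring activator. Psme1 read 0.22 and -0.07 without treatment, 0.22, -0.54 and -0.01 at 1/25 for 24 h, -0.69, 0.32 and -0.53 at 1/5 and 0.24, 0.31 and -0.18 at 1. The 6 h arrays read -0.22, -1.29 and -0.50 at 1/25, -1.01, -1.05 and -0.97 at 1/5 and -0.28, -0.24 and -1.62 at 1. The 3 arrays at 1/5 for 6 h, all of scan day 2, lay between -1.05 and -0.97, below both untreated arrays.

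Psme2 read -1.27 and -1.04 on untreated arrays. At 24 h the readings were -1.60, -1.07 and -1.17 at 1/25, -1.18, -1.33 and -1.07 at 1/5 and -0.17, -0.85 and -0.95 at 1. At 6 h they were -1.46, -1.24 and -0.30 at 1/25, -1.33, -0.73 and -1.59 at 1/5 and -1.40, -1.68 and -1.94 at 1. At concentration 1 the 24 h arrays were above and the 6 h arrays below both untreated arrays.

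Psme3 encodes the ring activator of the nucleus. It showed 2 levels rather than a dose series. It read -1.53 and -1.46 without treatment, -2.23, -1.87 and -1.29 at 1/25 for 24 h, -1.51, -1.24 and -1.39 at 1/5 and -1.25, -1.32 and -1.40 at 1. At 6 h the values were -1.50, 0.19 and 0.94 at 1/25, -0.04, 0.18 and 0.40 at 1/5 and -1.17, -1.29 and 0.06 at 1. All 6 arrays of scan day 2 read -0.04 or more and all 14 arrays of day 1 read -1.17 or less, whatever the group. The difference of celecoxib 1/5 at 6 h from untreated was 1.68 ± 0.52 (adjusted p = 0.0616, limma), and with scan day in the fit it was 0.00 ± 0.40.

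Psme4, the large single-chain activator, was the member with the smallest p at 6 h for 2 of the 3 concentrations. It read 0.88 and 1.20 on untreated arrays, 1.12, 1.60 and 1.60 at 1/25 for 24 h, 1.88, 1.17 and 1.66 at 1/5 and 1.09, 0.98 and 1.48 at 1. After 6 h it read 1.72, 1.78 and 1.86 at 1/25, 1.85, 2.11 and 1.97 at 1/5 and 1.96, 1.48 and 1.87 at 1. All 9 arrays of 6 h were above both untreated arrays. The differences were 0.75 ± 0.28, 0.94 ± 0.28 and 0.73 ± 0.28 in rising order of concentration (± SE), with adjusted p of 0.0938, 0.0512 and 0.188 in limma. With scan day in the fit they were slightly smaller, at 0.67 ± 0.30, 0.81 ± 0.35 and 0.69 ± 0.27, again without a call. The second probe of Psme4 gave 0.39 ± 0.25 at 1/25, 0.69 ± 0.25 at 1/5 and 0.22 ± 0.25 at 1.

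**Figure D2:**
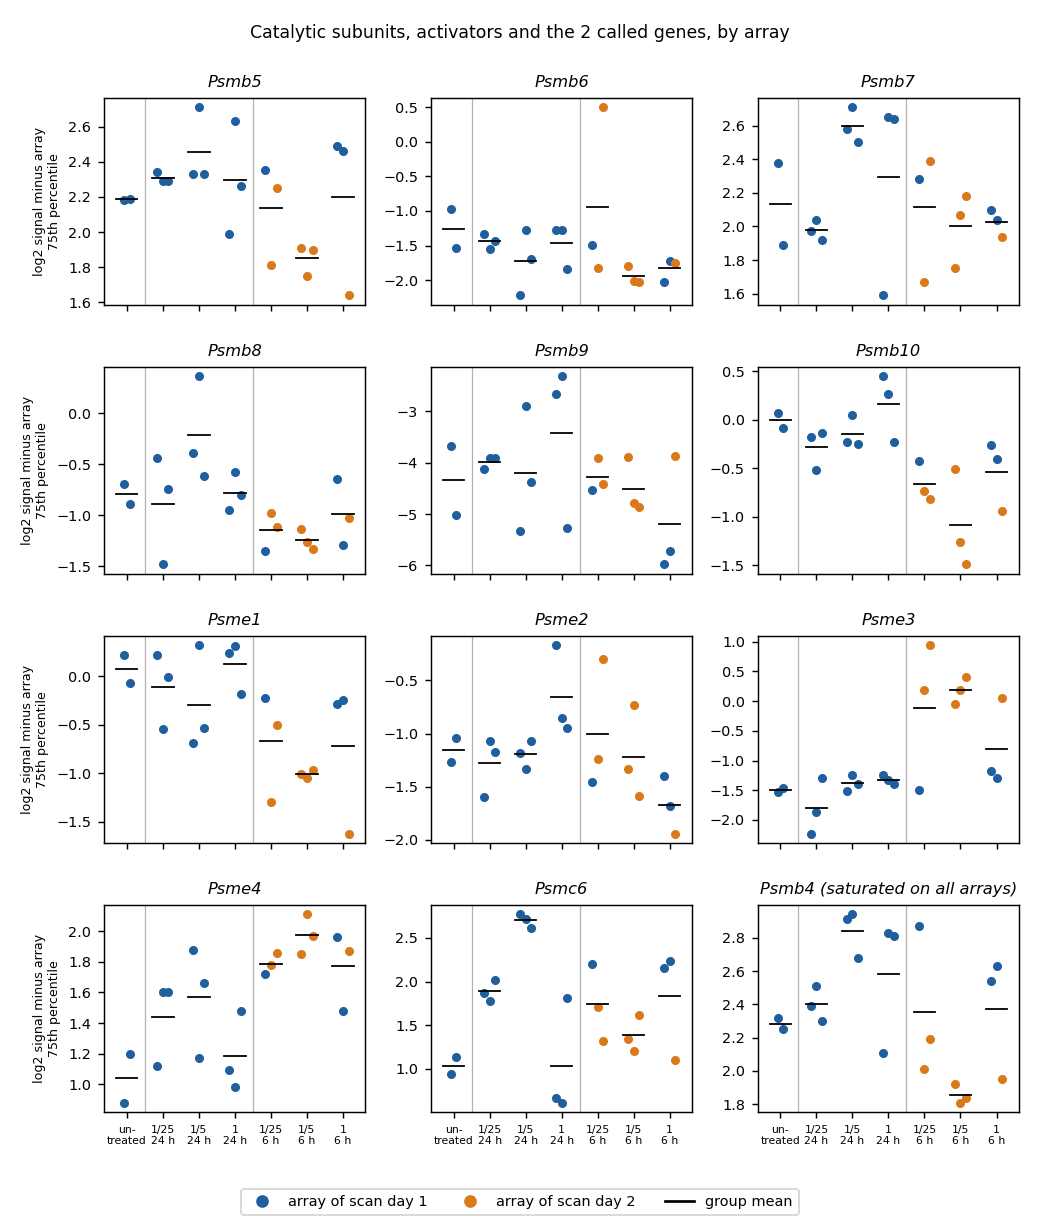
Log2 signal minus the array's 75th percentile (vertical axis) in each group (horizontal axis) for the 10 catalytic subunits and activators and for Psmc6 and Psmb4. Points are arrays, coloured by scan day, and lines are group means. The Psme3 arrays of scan day 2 stand above all those of day 1, and the 3 Psmc6 arrays of celecoxib 1/5 at 24 h stand above all others.

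Among the other members, those with the smallest p against untreated were these. At 6 h they were Psma3 (0.80 ± 0.34) for celecoxib 1/25, Psmd9 (-1.47 ± 0.45) for 1/5, and Psmc6 (0.79 ± 0.39) and Psmd6 (0.52 ± 0.27) for 1. Psmd9, a chaperone of cap assembly, read 0.10, -0.02 and -0.51 on the 1/5 arrays and 1.07 and 1.59 on the untreated ones. On scan day 1 it read 1.36 at 1/25 and 1.29 and 1.46 at 1, and on scan day 2 it read 0.20 and 0.23 at 1/25 and -0.15 at 1, so its low readings at 6 h were all of day 2. At 24 h the smallest p belonged to Psmc6, Psme4 and Psmd1 (0.51 ± 0.38) for 1/25, Psmc6, Psmd6 (0.59 ± 0.27) and Psme4 (0.53 ± 0.28) for 1/5, and Psmd6 (0.58 ± 0.27), Psmd7 (0.47 ± 0.33) and Psmd1 (0.54 ± 0.38) for 1.

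Psmc6 was not called against untreated in the fit on groups, and was called there for 3 of the 6 groups once scan day was a term. Its brighter probe read 0.94 and 1.13 on untreated arrays. At 24 h it read 1.87, 1.78 and 2.02 at 1/25, 2.77, 2.72 and 2.62 at 1/5 and 0.66, 0.61 and 1.81 at 1. At 6 h it read 2.20, 1.71 and 1.32 at 1/25, 1.34, 1.20 and 1.62 at 1/5 and 2.16, 2.24 and 1.10 at 1. At 24 h the order of the groups was not that of the concentrations, since 1/5 was highest and 2 of the 3 arrays at concentration 1 were below both untreated arrays. The brighter probe was saturated on 2 of the 3 arrays of 1/5 at 24 h and on no other array. For 1/5 at 24 h the difference from untreated was 1.67 ± 0.39 (adjusted p = 0.082, limma). Over the arrays of scan day 1 alone it was 1.67 ± 0.32 with adjusted p = 0.0448, and with scan day in the fit it was 1.67 ± 0.30 with adjusted p = 0.0188. With scan day in the fit Psmc6 was also called at 6 h for 1/25 (1.30 ± 0.35, adjusted p = 0.0314) and for 1 (1.09 ± 0.31, adjusted p = 0.0451), in fits that called 11.5% and 8.23% of all genes. The dimmer probe gave less than the brighter one for 1/5 at 24 h against untreated, at 0.73 ± 0.32, with arrays of 0.93, 0.22 and 0.40 against -0.57 and 0.13. At 6 h it gave 0.86 ± 0.32 for 1/25, 0.43 ± 0.32 for 1/5 and 0.69 ± 0.32 for 1, against 0.71, 0.35 and 0.79 of the brighter probe.

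The second question was whether the members followed concentration. Celecoxib 1 was compared with celecoxib 1/25 at 24 h and at 6 h, and limma called no member and no gene at all at either time (0% of all genes). At 24 h 2 members and at 6 h 4 members had an unadjusted p below 0.05, which were 4.76% and 9.52% of the 42, against 2.92% and 6.30% of all genes. The median member difference was 0.04 at 24 h and 0.04 at 6 h, against 0.02 and 0.06 over all genes. At 24 h Psmd6, a cap subunit, read 1.60, 2.25 and 2.24 at concentration 1 and 1.41, 1.57 and 1.28 at 1/25, with a difference of 0.61 ± 0.24. It was 1 of 4 members whose groups did not overlap there, against 12.4% of all genes. Psmc6 had -0.87 ± 0.35 and Psme2 0.62 ± 0.32 in the same comparison, where the dimmer Psmc6 probe gave -0.21 ± 0.28. At 6 h the smallest p belonged to Psmd5 (0.82 ± 0.33), Psmd2 (0.61 ± 0.25) and Psmc3ip (0.74 ± 0.31), each with an adjusted p of 0.782. For the catalytic subunit Psmb5 the 95% interval of the 24 h difference ran from -0.57 to 0.54, for Psmb8 from -0.52 to 0.74 and for Psmb10 from -0.16 to 1.04, so neither a change nor its absence was shown for them.

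The effect of concentration at 24 h minus that at 6 h was called for no member and for 0% of all genes. Psme2 had the smallest p, with 1.30 ± 0.46 (unadjusted p = 0.0113, adjusted p = 1, limma). Its effect of concentration was 0.62 at 24 h and -0.67 at 6 h. Psmc6 (-0.95 ± 0.49) and Psmb3 (0.82 ± 0.46) came after it, and the dimmer Psmc6 probe gave -0.05 ± 0.4. Psmb3 is a beta subunit without an active site.

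The third question was whether 24 h differed from 6 h. For celecoxib 1 no member was called, against 0.180% of all genes, and 6 members (14.3%) had an unadjusted p below 0.05, against 10.3% of all genes. For celecoxib 1/25 no member was called, against 2.40% of all genes, again with 6 members (14.3%) at an unadjusted p below 0.05, against 21.8% of all genes. For celecoxib 1/5 limma called 2 members, Psmc6 and Psmb4, against 4.80% of all genes, and 17 members (40.5%) had an unadjusted p below 0.05, against 26.9% of all genes. There 34 of the 42 members read higher at 24 h and the median member difference was 0.53, against 0.08 over all genes. For 1/25 and 1 the medians were 0.18 and 0.10, against 0.11 and 0.04.

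Psmc6 read 2.77, 2.72 and 2.62 at 1/5 for 24 h, against 1.34, 1.20 and 1.62 for 6 h. It was 1 of 29 members whose groups did not overlap, against 49.4% of all genes without overlap. The Psmc6 difference was 1.32 ± 0.35 (adjusted p = 0.0457, limma). The probe was saturated on 2 of the 3 arrays of 24 h, so no fold is given. The dimmer probe, never saturated there, gave 0.30 ± 0.28 in the same comparison.

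Psmb4 read 2.91, 2.94 and 2.68 at 1/5 for 24 h, against 1.92, 1.81 and 1.84 for 6 h. Its adjusted p was 0.0480, but it was saturated on all 6 arrays, so no fold is given. A saturated probe is read at the ceiling of the scanner, and the log2 75th percentile subtracted from it was 13.25 to 13.34 on the 24 h arrays and 13.79 to 13.87 on the 6 h arrays. The share of that gap in its difference was not tested.

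Every role but the activators read higher at 24 h for celecoxib 1/5 by its median. The medians were 0.67 for the 7 alpha subunits, 0.50 for the 4 beta subunits without an active site, 0.60 for the constitutive and 0.94 for the inducible catalytic subunits. They were 0.47 for the cap ATPases, all 6 of them higher, 0.59 for the other cap subunits, 0.52 for the assembly factors and -0.19 for the activators. Next after the 2 called genes came Psmb8 (1.03 ± 0.30, adjusted p = 0.0553), Psme3 (-1.56 ± 0.47), Psmb10 (0.94 ± 0.29) and Psma1 (0.95 ± 0.32), which were not called.

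All 3 arrays at 1/5 for 6 h were scanned on day 2 and all 3 for 24 h on day 1, so no array of this concentration gives a comparison of the times within a day. With scan day in the fit, estimated from the other 6 h groups, no member was called and 0.0252% of all genes were, and with slide as a random block none and 0.0288%. The median member difference was -0.06 in the scan day fit, with 19 members higher and 23 lower. Psmc6 had 0.43 ± 0.39 in that fit (adjusted p = 0.808, limma). Under slide as a random block the median stayed at 0.42, with 33 members higher and 9 lower, against 0.08 over all genes. Without any 1 of the 6 arrays 0 members were called, and 0.126% to 0.558% of all genes were. With the array median in place of the 75th percentile 0 members and 2.36% of all genes were called. Without the filter on dim probes these were 0 and 1.16%. The summed level of the 11 cardiomyocyte markers was also higher at 24 h, at 39.9 to 45.3 against 23.0 to 26.5 at 6 h, and Myh6 was called (2.82 ± 0.73), though not with scan day in the fit (0.86 ± 0.87). The 8 fibroblast markers summed to 25.8 to 27.3 at 24 h against 16 to 16.6 at 6 h. Both sums also differed between scan days within the other 6 h groups. For fibroblasts celecoxib 1 had 24.9 and 24 on day 1 and 16.2 on day 2. Celecoxib 1/25 had 27.9 on day 1 and 16.2 and 20 on day 2. For cardiomyocytes these were 43 and 35.6 against 23.3, and 50.6 against 19.8 and 37.5. Scan day, fewer cells of a type and less RNA per cell cannot be told apart here. The part of cell composition in the proteasome differences was not tested.

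**Figure D3:**
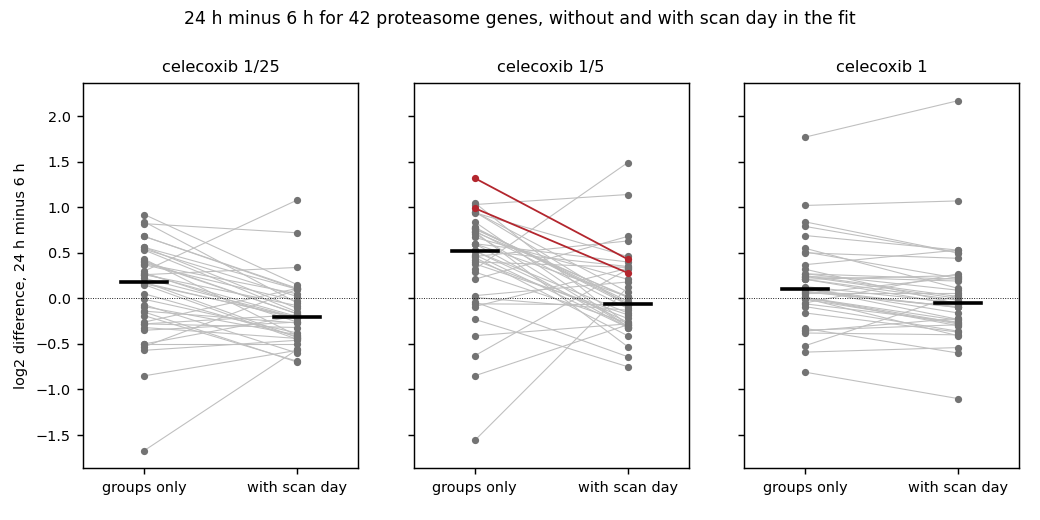
Log2 difference of 24 h minus 6 h (vertical axis) for the 42 proteasome genes at each concentration, from the fit on groups and from the fit with scan day added. Each line is a gene, Psmc6 and Psmb4 in red were called at 1/5, and black bars are medians. At 1/5 the median moved to -0.06 with scan day in the fit, from 0.53 without it.

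For celecoxib 1 the time comparison spans both days less completely, with 2 of its 6 h arrays on day 1. The activator Psme2 had the smallest p among the members, with a difference of 1.02 ± 0.32 (adjusted p = 0.268, limma). Of the inducible subunits Psmb10 had 0.69 ± 0.29 and Psmb8 0.21 ± 0.30. Psmb9 had 1.77 ± 0.72, but was well above background on 3 of 3 arrays of 24 h and on 1 of 3 of 6 h. None of the 4 was called. Psme2 read -0.17, -0.85 and -0.95 at 24 h and -1.40, -1.68 and -1.94 at 6 h. It was 1 of 6 members without overlap in this comparison, against 13.9% of all genes. With scan day in the fit its difference was 1.07 ± 0.33, which was not called.

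For celecoxib 1/25 the smallest p belonged to Psme3 (-1.67 ± 0.47, adjusted p = 0.0635), Psma3 (-0.85 ± 0.31) and Psmc3ip (0.82 ± 0.31), followed by Psma5 (0.92 ± 0.35). The 6 h array of scan day 1 read -1.50 for Psme3, inside the range of the 24 h arrays, and the 2 of day 2 read 0.19 and 0.94. Without the array of day 1, 5 members (11.9%) were called (Psme3, Psma5, Psma3, Psmd5 and Psma1), against 15.7% of all genes, in a comparison that then lay wholly between the days. None was called with scan day in the fit.

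The difference between scan days was therefore measured for each member, as a term beside the groups. This comparison was added after the data were seen. It rests on the groups that hold both days, celecoxib 1/25 and celecoxib 1 at 6 h (6 arrays), and day 2 arrays lay on other slides than those of day 1, so day and slide cannot be told apart. Limma called 21 of the 42 members (50%), against 32.6% of all genes. Of these, 19 were lower and 2 higher on day 2. The median member difference, day 2 minus day 1, was -0.59, against -0.08 over all genes, and 32 of the 42 were lower. The median level of the members at celecoxib 1 was 0.06 on the day 2 array and 0.86 and 0.64 on day 1. At 1/25 it was 0.19 and 0.63 on day 2 and 0.58 on day 1, so not every day 2 array was lower by this measure. Of the 27 members never saturated on any array 11 were called, 9 lower and 2 higher, with a median of -0.55. Of the 15 saturated on at least 1 array 10 were called, all lower, with a median of -0.64. The log2 75th percentile subtracted from each array was 13.66 to 14.10 on the 6 arrays of day 2 and 12.91 to 13.75 on the 14 of day 1, and its part in the saturated genes was not tested.

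The members with the largest falls on day 2 were Psmd9 (-1.34 ± 0.26, adjusted p = 0.0022), Psma7 (-1.25 ± 0.21, adjusted p = 0.000608), Psma5 (-1.15 ± 0.22, adjusted p = 0.00171), Psma1 (-1.02 ± 0.20) and Psme1 (-1.02 ± 0.31), all in limma. Psma1, Psma5 and Psma7 are alpha subunits, which form the outer rings. Psma1 read -0.14 and 0.50 on the day 2 arrays of 1/25 at 6 h and 1.30 on its day 1 array, and 0.24 on the day 2 array of concentration 1 against 1.22 and 1.10 on day 1. On the 3 arrays at 1/5 for 6 h, which did not enter that estimate, it read 0.24, 0.01 and 0.08.

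Psme3 rose by 1.68 ± 0.27 on day 2 (adjusted p = 0.000545) and Psma2 by 0.95 ± 0.22 (adjusted p = 0.0063). Psma2, also an alpha subunit, read 0.91 and 1.59 on day 2 and 0.35 on day 1 at 1/25. Genes of one ring thus moved in opposite directions between the days. The falls included cap genes of both kinds, with Psmc2, Psmc5 and Psmc6 among the ATPases and Psmd1, Psmd2, Psmd4, Psmd11 and Psmd12 among the other subunits. Of the 4 activators Psme1 fell, Psme3 rose, and Psme2 (0.15 ± 0.33) and Psme4 (0.13 ± 0.24) were not called. None of the 3 inducible subunits was called. Once group means were removed, the median correlation between pairs of members over the 20 arrays was 0.23, and 0.10 once scan day was removed too.

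**Figure D4:**
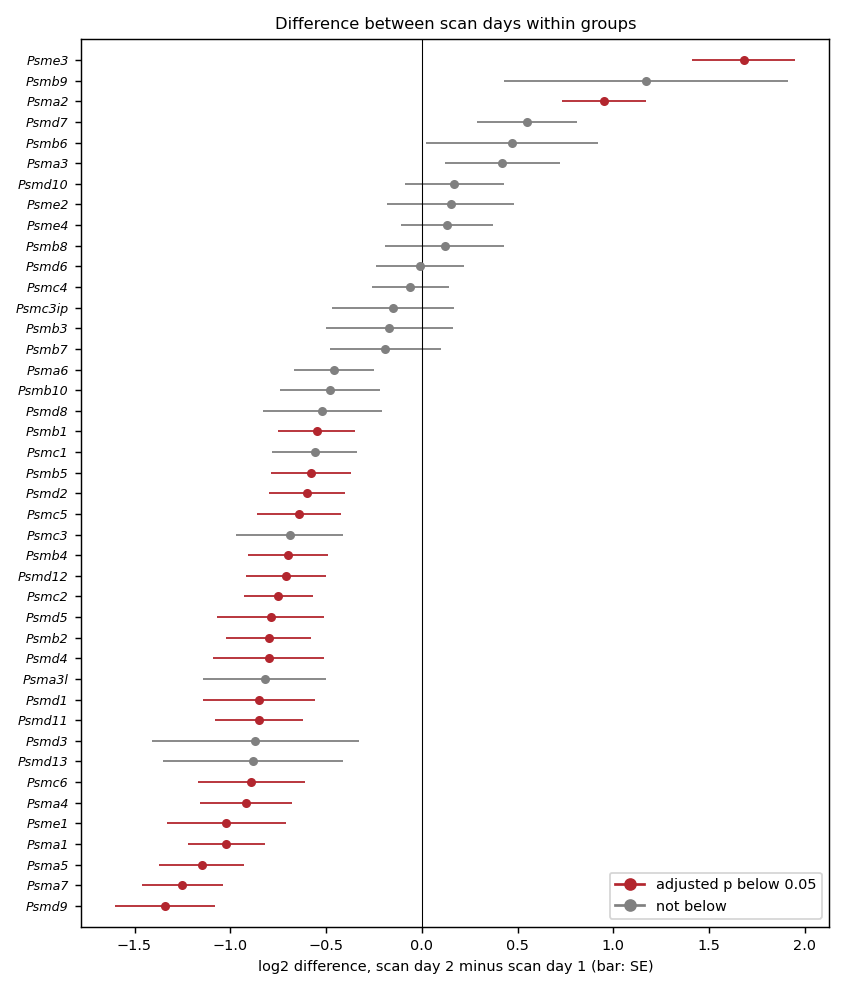
Log2 difference of scan day 2 minus scan day 1 within groups (horizontal axis) for each of the 42 members, with SE. The 21 called genes are red: 19 lie left of 0 and 2, Psme3 and Psma2, right of it.

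Probes of a single gene differed in the same way. Of the 7 members with more than 1 probe, Psmd7 and Psmd1 are described first. Their probes differed in sign by more than their errors for celecoxib 1/5 at 24 h against 6 h. For celecoxib 1/5 at 24 h against 6 h the brightest Psmd7 probe gave -0.85 ± 0.29 and the second 0.87 ± 0.32, while the dimmest gave -0.74 ± 0.53. The brightest read 0.86, 1.15 and 1.05 at 24 h against 1.68, 1.82 and 2.10 at 6 h, and the second read 1.29, 1.62 and 1.38 against 0.72, 0.43 and 0.52. Neither pair of groups overlapped, in a comparison where 49.4% of all genes had no overlap. Between scan days the second probe had -0.85 ± 0.25 (adjusted p = 0.0194 over all probes), the brightest 0.55 ± 0.26 and the dimmest 1.04 ± 0.51. A direction for Psmd7 therefore depends on the probe.

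Psmd1, the largest cap subunit, behaved alike. At 1/5 for 24 h against 6 h its brighter probe, saturated on 8 arrays, gave 0.78 ± 0.34 and its dimmer one -0.57 ± 0.35. Between scan days they gave -0.85 ± 0.29 and 0.76 ± 0.31. The probes of Psmc4, Psme4 and Psmc6 shared their direction for celecoxib 1/5 at 24 h against 6 h, at 0.40 and 0.27 for Psmc4, -0.41 and -0.64 for Psme4, and 1.32 and 0.30 for Psmc6. For Psma6 (0.67 and -0.03) and Psmd2 (-0.04 and 0.75) 1 of the probes stood near 0. In other comparisons probes of Psma6, Psmc4 and Psme4 also differed in sign by more than their errors. Psma6 had -0.39 ± 0.28 and 0.46 ± 0.24 for 1/5 at 6 h against untreated. Psmc4 had -0.28 ± 0.22 and 0.59 ± 0.30 for 1/25 at 24 h against 6 h. Psme4 had -0.26 ± 0.25 and 0.26 ± 0.23 for 1 against 1/25 at 24 h. Several members have close copies or pseudogenes in the rat genome, and signal from those cannot be separated from theirs.

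**Figure D5:**
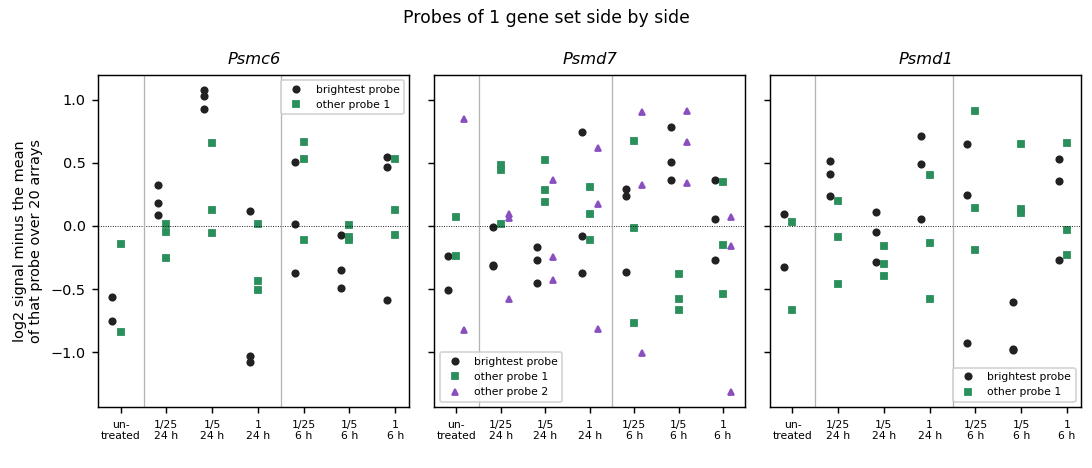
Log2 signal of each probe of Psmc6, Psmd7 and Psmd1, minus that probe's mean over the 20 arrays (vertical axis), by group (horizontal axis). Points are arrays and symbols are probes. At 1/5 for 6 h the brightest probe and a second one lie on opposite sides of 0 for Psmd7 and Psmd1, and the 3 highest Psmc6 points of the brightest probe are those of 1/5 at 24 h.

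Genes that work with the proteasome were read beside the members. Of 49 genes listed for ubiquitin conjugation, delivery, deubiquitination and proteasome assembly, 26 were measured. Limma called 1 of them at 6 h for celecoxib 1/25 against untreated, 1 for 1/5 against untreated, and 2 for 1/5 at 24 h against 6 h, out of 12 comparisons. The shares of all genes called in those comparisons were 6.15%, 6.49% and 4.80%, in that order. Uchl5, a deubiquitinating enzyme that docks on the cap, was higher at 1/25 for 6 h, with 1.54, 1.05 and 1.51 against 0.35 and 0.56 in untreated cells (0.91 ± 0.24, adjusted p = 0.0373). It had 1.02 ± 0.24 with scan day in the fit (adjusted p = 0.0177), and with slide as a random block 0.95 ± 0.29 (adjusted p = 0.174). Uchl5 was not called against untreated in the other groups, though readings at 6 h were of like height there. They were 1.32, 1.21 and 1.22 at 1/5 and 1.40, 1.45 and 1.36 at 1. At 24 h it read 0.58, 0.87 and 0.73 at 1/25, 1.21, 1.11 and 1.39 at 1/5 and 0.68, 0.47 and 0.89 at 1.

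Trim63, the muscle ubiquitin ligase MuRF1, was higher at 1/5 for 6 h, with 1.45, 1.40 and 1.49 against -0.44 and -0.07 in untreated cells (1.70 ± 0.28, adjusted p = 0.00927). At 1/5 it was lower at 24 h, with -0.08, 0.13 and -0.21, than at 6 h (-1.50 ± 0.25, adjusted p = 0.00793). The arrays of 1/5 at 6 h were all of scan day 2, and the untreated and 24 h arrays all of day 1. Neither difference of Trim63 was called with scan day in the fit, at 1.19 ± 0.29 (adjusted p = 0.0613) and -0.99 ± 0.28 (adjusted p = 0.242), nor with slide as a random block. Adrm1, a ubiquitin receptor of the cap, was also lower at 24 h for 1/5, with -1.23, -1.66 and -1.24 against -0.34, 0.31 and -0.35 at 6 h (-1.25 ± 0.27, adjusted p = 0.0269, limma), and with scan day in the fit had -1.09 ± 0.37, not called. With slide as a random block no related gene named here kept its call, those of the next paragraph included.

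The interferon and antigen processing genes, which share their inducer with Psmb8, Psmb9, Psmb10, Psme1 and Psme2, numbered 22 in the list, of which 12 were tested. Limma called 1 higher at 1/5 for 6 h against untreated, 1 lower at 1/25 for 6 h against untreated, and 2 higher at 1/25 for 24 h against 6 h. The shares of all genes called in those comparisons were 6.49%, 6.15% and 2.40%, in that order. Tap1, a subunit of the peptide transporter that takes proteasome products to the endoplasmic reticulum, was lower at 1/25 for 6 h, with -5.51, -5.69 and -7.56 against -3.59 and -3.73 in untreated cells (-2.59 ± 0.56, adjusted p = 0.0215), where 1 of the 3 treated and both untreated arrays were well above background. At 24 h of 1/25 it was higher than at 6 h, with -3.54, -4.24 and -3.74 (2.41 ± 0.50, adjusted p = 0.0236), where 2 of the 3 arrays of 24 h and 1 of the 3 of 6 h were well above background, so the size of the difference rests partly on readings near background. Tap1, with scan day in the fit, kept the first call (adjusted p = 0.0333) and lost the other (adjusted p = 0.0703). Gbp2, an interferon-induced GTPase, was higher there too, with -1.29, -1.31 and -0.71 at 24 h against -3.13, -1.91 and -2.78 at 6 h (1.51 ± 0.31), and was still called with scan day in the fit (1.85 ± 0.34, adjusted p = 0.0137). Cxcl10, an interferon-induced chemokine, was called higher at 1/5 for 6 h than in untreated cells (adjusted p = 0.0422, limma), with both untreated arrays not well above background. Against the lowest signal well above background on those arrays, its level was at least 1.82-fold higher. It was not called with scan day in the fit (adjusted p = 0.506). In the same comparisons the inducible subunits gave, for 1/25 at 24 h against 6 h, 0.26 ± 0.30 for Psmb8, 0.30 ± 0.72 for Psmb9 and 0.38 ± 0.29 for Psmb10, with no call. Of the 11 macrophage and leukocyte markers 1 was called in each comparison that called Tap1, and it was a different one. Of all genes 6.15% were called at 1/25 for 6 h against untreated and 2.40% for 24 h against 6 h. Cd14 was lower at 1/25 for 6 h than in untreated cells (log2 means of 0.48 and 1.74). There 3 of the 11 markers read higher, with a median difference of -0.73. Csf1r was at least 3.83-fold higher at 1/25 for 24 h than at 6 h, where it was not well above background on any array. At 24 h it was well above background on 2 of the 3 arrays. In that comparison 8 of the 11 read higher, with a median difference of 0.14. Cd14 was also called with scan day in the fit (adjusted p = 0.0211) and Csf1r was not (adjusted p = 0.176). Their part in the Tap1 and Gbp2 differences was not tested.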

How the data were processed

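Total RNA of 20 samples was labelled with Cy3 and hybridised to single-colour Agilent rat arrays. The deposited scanner files hold, per the file headers, spot intensity on a linear scale, background-subtracted by Agilent Feature Extraction 9.5.3.1. The deposited matrix of values holds, as they show, a linear ratio made by the authors, the processed signal over the array median and over the mean of the untreated arrays. Its log2 served only as an alternative.

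Here log2 processed signals were taken relative to each array's 75th percentile. Control and outlier-flagged spots were dropped, spots of a probe were averaged, and the brightest probe stood for a gene if all arrays of 1 group or more read it well above background. Limma 3.58.1 in R 4.3.3 (with statmod 1.5.0) fitted the 7 groups over 20 arrays, with 13 residual degrees of freedom (17.1 after moderation), and gave 12 comparisons, with Benjamini-Hochberg adjustment over all genes kept. The fit was tested on simulated data. Scan day as a block was one of the alternatives, and the values of its term, its split by saturation and the related genes under the day and slide fits were added after the data were seen. The members, the lists of related genes and the motifs were chosen with earlier results of these data known. The catalytic subunits and activators were always named, as were up to 6 called members per comparison or, with none called, the 3 with the smallest p. Other genes are named to show the scan day difference, the probes of one gene or the related lists. Replicate numbers did not pair the arrays: deviations of same-numbered arrays from their group means had a mean correlation of -0.004 over 57 pairs (lowest -0.438, highest 0.463). Promoters are RefSeq's, on GRCr8. Alternatives changed the background correction, scaling, filter, probe choice, blocks and arrays.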

Additional observations from a re-analysis of the deposited data

How the results depend on the processing

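In the comparisons of celecoxib 1 at 24 h and celecoxib 1/25 at 24 h with untreated, of celecoxib 1 with 1/25 at each time, of 24 h with 6 h for celecoxib 1, and in the change of the concentration effect with time, every alternative run left 0 members called by limma. The share of all genes called in those runs was 1.44% or less. For celecoxib 1 at 6 h against untreated, scan day as a block gave 1 (Psmc6), and 8.23% of all genes. For 1/5 at 6 h against untreated, quantile normalization and a filter for probes well above background on all arrays each gave 4, and normexp background correction (Psme4), median scaling and the authors' value table (Psme3) gave 1. Of all genes these settings called 12.7%, 10.2%, 12.3%, 7.29% and 7.31%, in that order. For 1/25 at 6 h against untreated, median scaling and the authors' table gave 2 (Psme3 and Psme4), scan day as a block 1, and leaving out an array 0 to 5. Of all genes these settings called 8.64%, 8.66% and 11.5%, and the run with 5 members called 13.7%. For 1/5 at 24 h against untreated, normexp, scan day as a block and scan day 1 only gave 1 (Psmc6). Of all genes they called 1.23%, 1.40% and 0.825%. For 1/5 at 24 h against 6 h, where 2 were called, quantile normalization gave 4, the stricter filter 5, normexp 3 and the mean of all kept probes 1. Of all genes they called 5.62%, 10.5%, 11% and 4.31%. Median scaling, no filter, the authors' table, scan day as a block and slide as a random block gave 0, as did leaving out each array (0 to 0). Of all genes these settings called 2.36%, 1.16%, 2.33%, 0.0252% and 0.0288%, and leaving out an array called 0.126% to 0.558%. For 1/25 at 24 h against 6 h, median scaling, the stricter filter, the authors' table and the replicate block gave 1 (Psme3), and leaving out an array 0 to 5. Of all genes these settings called 2.28%, 4.26%, 2.25% and 2.81%, and the run with 5 members called 15.7%. The replicate block changed no other count of members called. Of all genes it called 2.50% for 1/5 at 6 h, 1.79% for 1/25 at 6 h, 0.166% for 1 at 6 h and 0.148% for 1/5 at 24 h against untreated, where the fit without it called 6.49%, 6.15%, 0.439% and 0.288%. The differences of the genes named per comparison gave 601 values under the alternatives, of which 549 kept their direction and side of the threshold, 27 lost the threshold, 23 passed it and 2 changed sign. Psmd9 for 1/5 at 6 h against untreated became 0.049 with slide as a fixed block, and Psme3 for 1/25 at 6 h against untreated became -0.0028 on scan day 1 only. The cause was not tested. A fixed slide block could be fitted for some comparisons only. Saturation limits the brightest members and dimness limits Psmb9.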
